A study of Mus musculus with 4 samples.

Results

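MHC class I molecules and the genes they depend on were followed in a mouse thymic lymphoma line after an inducible block of Notch-dependent transcription. The set holds 10 genes. They are the heavy chain genes H2-K1, H2-D1, H2-T23, H2-M3 and H2-Q10, the heavy chain-like H2-Bl, which RefSeq lists as a transcribed pseudogene, and the genes of the light chain beta-2 microglobulin (B2m), the loading factor tapasin (Tapbp), the transcriptional activator Nlrc5 and the lipid-presenting relative Cd1d1. Of them, 9 are among the 18193 genes with a probe set that names 1 gene on the array, and H2-T23 is read only by probe sets that also name another gene. All probe sets whose gene symbol in the platform annotation is exactly 1 of these names were used, and where a gene has several, the brightest on average across the arrays stands for it. Probe sets that name several genes are given apart.

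The samples are 4 Affymetrix arrays of the T29 line, which the series describes as Ikaros-deficient. All 4 samples carried MigR1-MLER, a retroviral vector with an inducible dominant-negative Mastermind, the co-activator that Notch needs at its target genes. The 2 4OHT samples were exposed to 100 nM 4OHT, a tamoxifen metabolite, for 24 h, and the 2 ethanol samples received the solvent for 24 h. No group lacked the construct, and T29 is a single line. The labels do not give its MHC haplotype, so how well the probes match its class I alleles is not known here. Whether the replicates were cultured separately is not stated; p-values therefore reflect no more than the scatter of these 4 samples, and that scatter may be technical. In bulk RNA, fewer cells of a type and less RNA per cell cannot be told apart.

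MHC class I molecules are heavy chains that pair with beta-2 microglobulin and show peptides on the cell surface. The classical chains H2-K1 and H2-D1 present peptides from inside the cell to CD8+ T cells. The non-classical chains of the T region have narrower roles: Qa-1, from H2-T23, engages an inhibitory receptor on natural killer cells, and the thymus leukaemia antigen, from H2-T3, binds CD8 alpha homodimers. Peptides are cut from proteins by proteasomes, pumped into the endoplasmic reticulum by the Tap1 and Tap2 transporter and loaded with the help of tapasin.

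Class I promoters carry a conserved module of short elements that Nlrc5, RFX, CREB-family and NF-Y proteins occupy, and many also carry sites for NF-kappaB and for interferon regulatory factors. Promoter sequences of RefSeq (build GRCm38.p6) matched 7 of the 10 genes. The 200 bases before the annotated start are shown for 4 of them: H2-T23, a T-region gene with called probe sets, the classical pair, and the shared light chain. The window of H2-T23 lies at chr17:36032702-36032901 (minus strand), H2-K1 at chr17:34000334-34000533 (minus strand), H2-D1 at chr17:35262894-35263093 (plus strand) and B2m at chr2:122147487-122147686 (plus strand). Of the 2 starts listed for H2-K1, the one furthest downstream was used. Capitals mark matches, on either strand, to TGACGC (the core of the CREB-like element), ATTGG (an inverted CCAAT box), the core of the interferon-stimulated response element, ISRE (GAAA, any 2 bases, GAAA), and TGGGAA (the core site of RBPJ, the DNA-binding partner of Notch).
H2-T23: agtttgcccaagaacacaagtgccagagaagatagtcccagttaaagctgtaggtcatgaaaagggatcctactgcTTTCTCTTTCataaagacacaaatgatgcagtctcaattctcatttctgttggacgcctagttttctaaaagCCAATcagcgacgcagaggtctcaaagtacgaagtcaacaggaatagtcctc
H2-K1: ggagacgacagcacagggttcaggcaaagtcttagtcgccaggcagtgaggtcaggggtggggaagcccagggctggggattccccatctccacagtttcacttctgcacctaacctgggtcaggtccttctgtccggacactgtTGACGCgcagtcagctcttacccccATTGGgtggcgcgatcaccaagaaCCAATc
H2-D1: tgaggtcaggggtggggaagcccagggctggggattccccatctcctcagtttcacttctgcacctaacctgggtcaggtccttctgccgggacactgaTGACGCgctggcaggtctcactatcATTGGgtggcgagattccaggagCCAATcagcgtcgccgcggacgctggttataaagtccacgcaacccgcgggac
B2m: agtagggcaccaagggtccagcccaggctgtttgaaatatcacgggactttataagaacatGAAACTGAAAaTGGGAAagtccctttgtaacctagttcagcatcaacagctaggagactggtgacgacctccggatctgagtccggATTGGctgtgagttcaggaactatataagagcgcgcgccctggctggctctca
In these 200 bases, H2-K1 and H2-D1 each held 1 TGACGC and 2 ATTGG matches, in the same order. Neither held a match to the ISRE core pattern or to TGGGAA. The ISRE pattern allows no mismatch in its GAAA parts, so variant forms of the element were not searched for and may be present unmarked. H2-T23 held 1 ISRE core and 1 ATTGG match and no TGACGC. B2m held 1 ISRE core, which starts at -139 from the annotated start, 1 TGGGAA match just behind it, at -128, and 1 ATTGG. Over 32851 promoter windows of RefSeq, the 200 bases before the start held TGACGC in 5.37%, ATTGG in 29.3%, the ISRE core in 2.27% and TGGGAA in 17.3%. A looser kappaB-like pattern, GGG and CC with any 5 bases between, was found in 41.4% of windows, in H2-K1, H2-D1 and B2m but not in H2-T23, and is not capitalised. Such matches describe letters and not bound sites.

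Expression values are RMA values on the log2 scale, so a difference of 1 is a 2-fold change. They were compared with limma over 11581 genes whose mean reached the testing floor of 4.81, and a gene was called where the Benjamini-Hochberg adjusted p was below 0.05. The value of Dtx1, a standard Notch readout, was 6.01 and 6.01 with 4OHT, against 9.41 and 9.43 with ethanol. Pearson's r across genes was 0.995 within each group and 0.983 to 0.987 between groups. Of 9 T-cell markers with a probe set, 7 reached the floor, with Cd2 and Cd5 below it, and their summed linear level was 36609 to 36702 with 4OHT, against 33898 to 36743 with ethanol. Among them limma called Cd3g 1.48-fold lower (adjusted p = 0.0356) and Cd247 1.60-fold higher (adjusted p = 0.0347). Of 7 B-cell markers 2 reached the floor, of 10 myeloid and dendritic markers 4 and of 9 stromal, epithelial and endothelial markers 5. Cd79a, Cd79b, Lyz2, Itgam, Itgax, Col1a1 and Krt8 were among those below it. Pax5 (mean 5.34), Cd14 (6.17), Flt3 (6.59), Pecam1 (8.18) and Pdgfrb (8.50) were among those above it. The summed linear level of the B-cell list was 145 to 146 with 4OHT, against 154 to 159 with ethanol, that of the myeloid and dendritic list 383 to 385, against 362 to 373, and that of the stromal list 835 to 984, against 800.0 to 811. In the stromal list Pecam1 was called higher (8.54 and 8.74 with 4OHT, against 7.65 and 7.78 with ethanol; limma adjusted p = 0.0165), and the other 4 tested markers had changes below 0, from -0.29 to -0.07, with no call. The part of these cell types in the results was not tested. Ethanol replicate 1 stood apart in the 5′ probe set of 18S ribosomal RNA (8.02, against 6.35 and 6.74 with 4OHT and 6.78 on the other ethanol array). Without it, the log2 change of H2-Bl was -1.98 (called), and those of H2-K1, Tapbp and Cd1d1 were -0.49, 0.42 and 0.60 (none called).

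Among the class I genes, H2-Bl was called lower with 4OHT and none was called higher. Of the 10 genes, 7 were tested, 2 (H2-Q10 and Nlrc5) were below the floor, and H2-T23 had no probe set of its own. H2-Bl was called lower, 1 of 7 tested genes, where 3.57% of all tested genes were called lower. No gene was called higher in limma, where 3.9% of all tested genes were; 2 reached an unadjusted p below 0.05 in that direction and 1 in the other, against 12.3% and 13.2% of all tested genes. The groups did not overlap in 3 of the 7 in the lower direction and 2 in the higher direction, against 30.2% and 26.7% of all tested genes; no more is read from 7 genes. The median log2 change of the 7 was -0.03, against -0.01 for all tested genes.

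**Figure D1:**
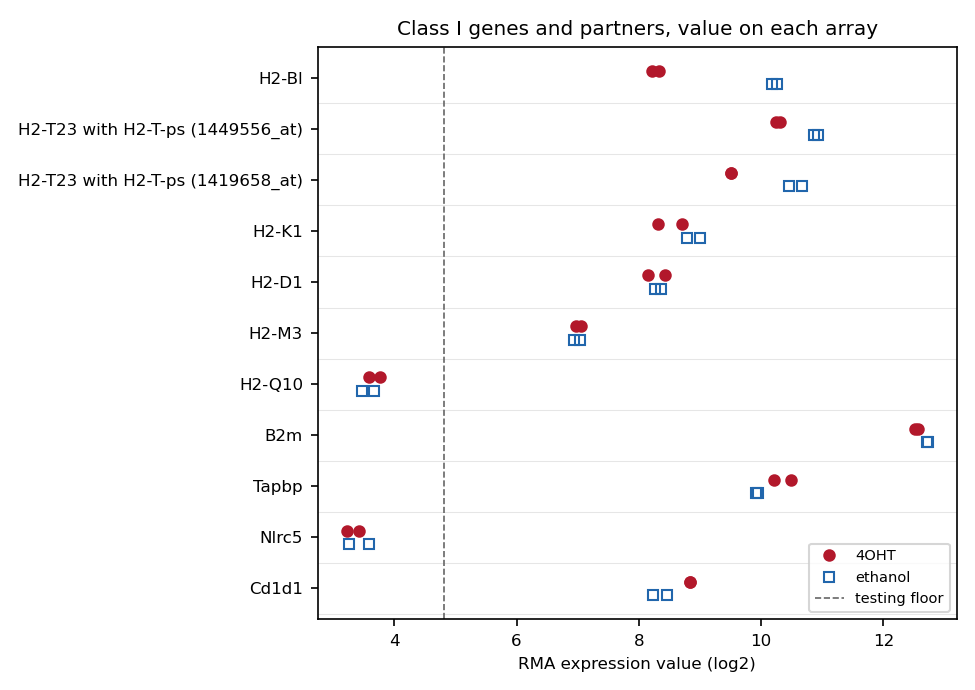
Each row is a gene, at its representative probe set, and the x axis is the RMA expression value (log2) of each array, with 4OHT as filled circles above ethanol as open squares; H2-T23 has 2 rows, for probe sets that also name H2-T-ps. H2-Bl and both H2-T23 rows are lower on both 4OHT arrays, while H2-Q10 and Nlrc5 lie left of the testing floor of 4.81.

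H2-Bl, a transcribed pseudogene of the T region, changed most among the 7. Its value was 8.21 and 8.33 with 4OHT, against 10.17 and 10.25 with ethanol. Both 4OHT arrays lay below both ethanol arrays, and the gap was many times the spread within either group. The fall was 3.84-fold (log2 change -1.94 ± 0.09 SE, n = 2 each, limma adjusted p = 0.00221), the 9th smallest p-value of all genes tested. A further probe set, which also names Gm38417 and LOC547349, had values of 8.18 and 8.22 with 4OHT, against 10.38 and 10.43 with ethanol. It was 4.61-fold lower (limma adjusted p = 0.00173, over all non-control probe sets). The H2-Bl call was kept in each of 13 alternative fits, also with any 1 array left out (adjusted p from 0.0136 to 0.0354 there). In those fits the group of 2 arrays alone supplies the gene's own spread, and the lone array is assumed to vary like it.

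The 3 genes whose profiles over the 4 arrays lay closest to that of H2-Bl were Coro2a, Wdr25 and Ptcra, by the Euclidean distance of values from each gene's own mean. The distances were 0.228, 0.279 and 0.351. Coro2a, a coronin family gene, had values of 7.46 and 7.66 with 4OHT, against 9.24 and 9.32 with ethanol. Ptcra, the pre-T-cell receptor alpha chain gene, had 8.66 and 8.53 with 4OHT, against 10.73 and 10.92 with ethanol. With 4 arrays in 2 groups, this likeness describes little more than the size of the fall.

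H2-T23, which encodes Qa-1, was read by 2 probe sets that both also name H2-T-ps, another gene of the T region, so the RNAs of these genes cannot be told apart here. The first had values of 9.51 and 9.50 with 4OHT, against 10.68 and 10.46 with ethanol. The second had 10.31 and 10.24 with 4OHT, against 10.92 and 10.87 with ethanol. In both, the 4OHT arrays lay below the ethanol arrays without overlap. The changes were -1.06 ± 0.12 and -0.62 ± 0.10 (SE, n = 2 each), with limma adjusted p-values of 0.0176 and 0.0422 over all non-control probe sets. Of the 6 probe sets that name a gene of the set together with another gene, 3 were called lower and none higher in limma, where 0.635% and 1.46% of all non-control probe sets were, and the changes of all 6 were below 0. These 3 are the 2 of H2-T23 and that of H2-Bl. Both H2-T23 calls were lost without any 1 array (adjusted p from 0.069 to 0.204), at changes of -1.17 to -0.59.

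Heavy chain genes of the T region lay lower as well. Among 11 probe sets that name H2-Bl or an H2-T gene, 9 were called lower, none was called higher in limma or had a change above 0, and the groups did not overlap in 10, all lower with 4OHT. Of all non-control probe sets, 0.635% were called lower, 1.46% were called higher and 25.8% did not overlap with 4OHT lower. This grouping was made after the values were seen, several of its probe sets name the same genes, and near-identical paralogs can share probes, so the 11 are not separate measurements. The called changes ran from 1.54-fold to 4.61-fold. H2-T3, which encodes the thymus leukaemia antigen, had 9.28 and 9.09 with 4OHT, against 10.31 and 10.29 with ethanol, a 2.16-fold fall (-1.11 ± 0.10 SE, limma adjusted p = 0.0107 over all genes tested). Without 4OHT replicate 1 or 2 the H2-T3 call was lost (adjusted p = 0.0581 and 0.0546), at changes of -1.21 and -1.01. T22 and T10 products are bound by some gamma-delta T-cell receptors, though RefSeq lists H2-T10 as a transcribed pseudogene. The probe set of H2-T9, H2-T22 and H2-T10 had 11.90 and 11.76 with 4OHT, against 12.78 and 12.71 with ethanol.

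A further probe set of those 3 genes had 8.21 and 7.49 with 4OHT, against 8.81 and 8.53 with ethanol, and did not pass (adjusted p = 0.166). H2-T24 differed from the rest of the group: its groups overlapped, with 5.13 and 4.95 for 4OHT and 5.35 and 4.98 for ethanol, close to the floor. With any 1 array left out, fewer of these probe sets were called lower than the 9 with all arrays. Calls over all genes tested became fewer in those fits too.

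**Figure D2:**
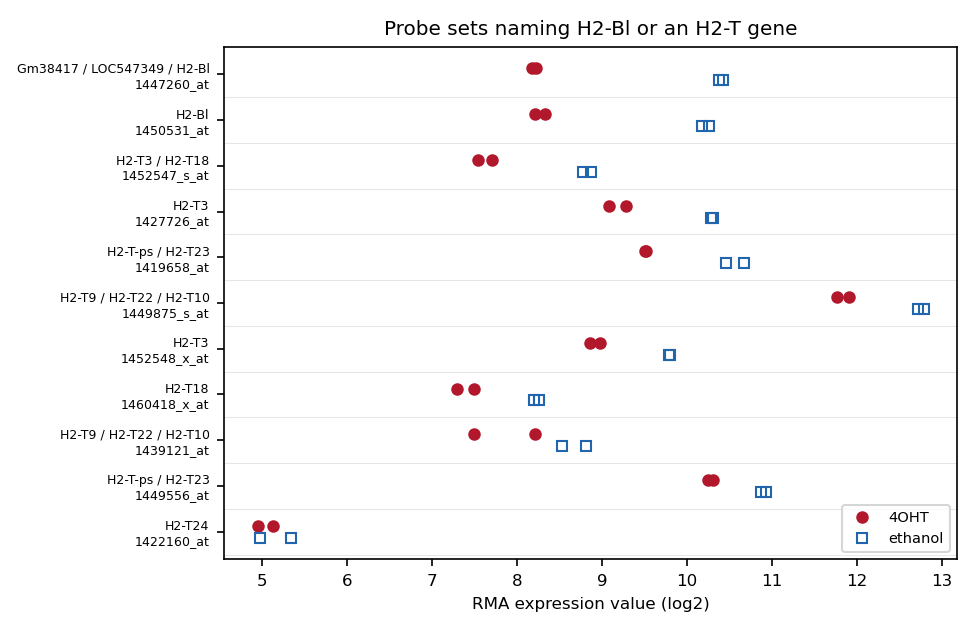
Each row is a probe set naming H2-Bl or an H2-T gene, ordered by its change, and the x axis is the RMA expression value (log2) of each array, with 4OHT as filled circles above ethanol as open squares. In 10 of the 11 rows both 4OHT arrays lie left of both ethanol arrays; the exception is H2-T24 at the bottom.

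The classical heavy chain genes moved less, and their probe sets did not all move alike. H2-K1 had 8.31 and 8.70 with 4OHT, against 8.79 and 8.99 with ethanol. The groups did not overlap, but the gap between them was smaller than the distance between the 4OHT arrays. The log2 change was -0.38 ± 0.16 (SE, n = 2 each; 95% interval from -0.77 to 0.01), and limma did not call it (adjusted p = 0.201; adjusted p = 0.0289 with the replicate number as a block). With 1 array left out it ran from -0.58 (without 4OHT replicate 2) to -0.19 (without 4OHT replicate 1). All 4 of its probe sets are marked _x_at, the suffix for probes that can also bind other transcripts. Their changes ran from -0.56 to 0.07. In 2 of the 4 the groups did not overlap, lower with 4OHT, against 25.8% of all non-control probe sets. The probe set with the change of -0.56 had 6.39 and 6.65 with 4OHT, against 7.05 and 7.10 with ethanol (adjusted p = 0.0795 over probe sets naming 1 gene).

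H2-D1 had 8.15 and 8.42 with 4OHT, against 8.26 and 8.36 with ethanol. Both ethanol arrays lay between the 4OHT arrays. The change was -0.03 ± 0.12 (SE, n = 2 each; adjusted p = 0.915), with a 95% interval from -0.33 to 0.28. Of its 9 probe sets, 7 are marked _x_at and 5 reached the floor. Their changes ran from -0.23 to 0.11, and none passed in limma (lowest adjusted p = 0.325). A probe set that names H2-K1 and H2-D1 together had 6.28 and 6.52 with 4OHT, against 7.0 and 6.89 with ethanol (adjusted p = 0.0942).

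H2-M3, which presents N-formylated peptides of bacterial and mitochondrial proteins, had 7.06 and 6.97 with 4OHT, against 7.03 and 6.94 with ethanol. The change was 0.03 ± 0.09 (SE; 95% interval from -0.20 to 0.25, adjusted p = 0.871). The groups overlapped. H2-Q10, a secreted class I gene known from liver, was below the floor on every array, with 3.58 and 3.77 for 4OHT and 3.47 and 3.67 for ethanol. RMA gives no detection call, so its values are given with no test.

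**Figure D3:**
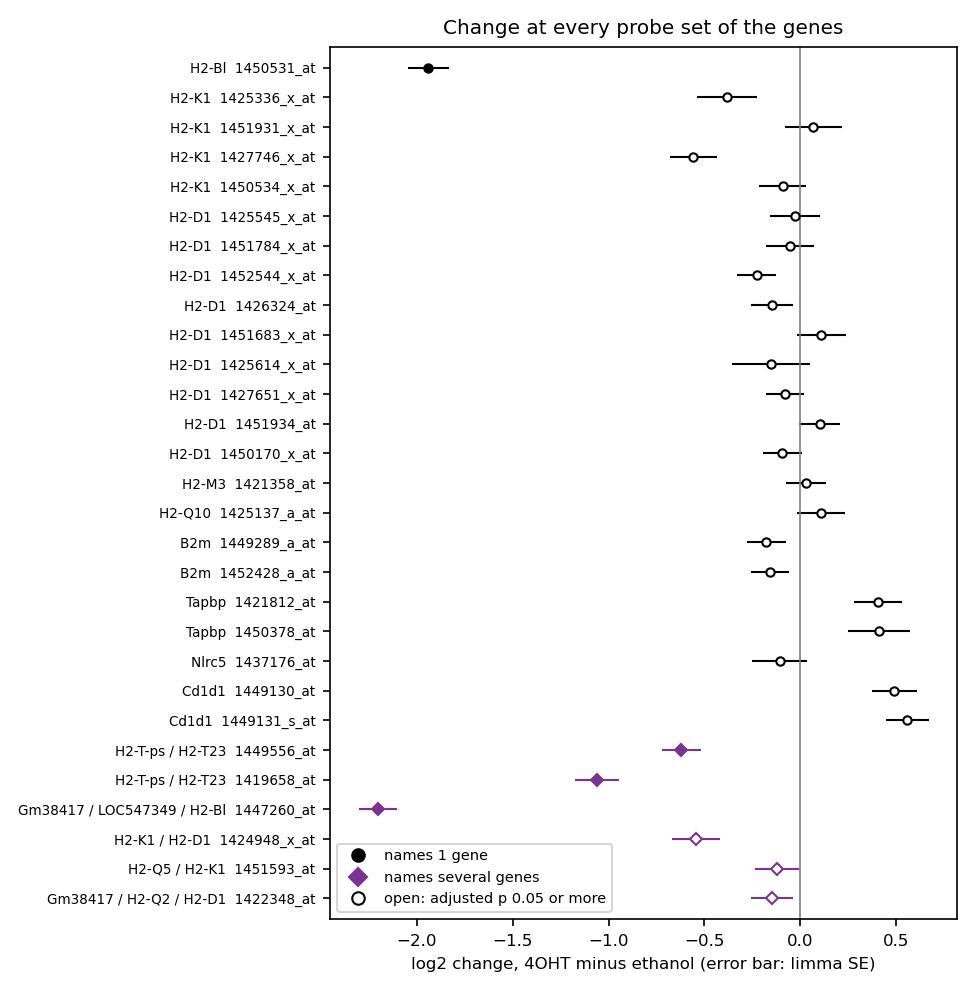
Each row is a probe set and the x axis is the log2 change, 4OHT minus ethanol, with limma's SE as the bar; black circles name 1 gene and purple diamonds several, each from its own fit, and filled symbols have an adjusted p under 0.05. The H2-K1 rows spread from -0.56 to 0.07, the H2-D1 rows lie close to 0, and both rows of Tapbp and of Cd1d1 lie to the right of 0.

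B2m, the light chain shared by these heavy chains and by Cd1d1, differed little. It had 12.56 and 12.52 with 4OHT, against 12.73 and 12.71 with ethanol. Both 4OHT arrays were lower, by an amount that limma did not call (-0.18 ± 0.08 SE, n = 2 each, 95% interval from -0.39 to 0.03, adjusted p = 0.257). Its other probe set had 12.54 and 12.56 with 4OHT, against 12.72 and 12.70 with ethanol.

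Tapbp and Cd1d1 lay in the opposite direction to H2-Bl, without a call. Tapbp, which holds empty class I molecules next to the peptide transporter, had 10.48 and 10.21 with 4OHT, against 9.96 and 9.92 with ethanol. The change was 0.41 ± 0.12 (SE, n = 2 each; 95% interval from 0.11 to 0.70, adjusted p = 0.102). Its other probe set had 8.61 and 8.52 with 4OHT, against 8.38 and 7.93 with ethanol, so the groups did not overlap in either. The replicate block turned this into a call (adjusted p = 0.0261).

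Cd1d1, which presents lipids to natural killer T cells, had 8.84 and 8.83 with 4OHT, against 8.46 and 8.23 with ethanol. The 4OHT arrays were nearly equal and both above the ethanol arrays. The change was 0.49 ± 0.11 (SE, n = 2 each; 95% interval from 0.22 to 0.76), and limma's adjusted p of 0.0561 missed the threshold. Its second probe set, marked _s_at, had 8.72 and 8.64 with 4OHT, against 8.21 and 8.04 with ethanol (0.56 ± 0.11 SE). Cd1d1 passed in 5 of 13 alternative fits, with adjusted p-values from 0.0109 to 0.204 over all 13.

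Nlrc5, the activator of class I promoters, was below the floor on every array, with 3.22 and 3.42 for 4OHT and 3.59 and 3.26 for ethanol. Over the 23 probe sets that name 1 gene of the set, 1 was called lower and none higher in limma, where 0.953% and 1.52% of all such probe sets on the array were, and 7 of the 23 lay below the floor. With unadjusted p-values below 0.05, 4 were higher (those of Tapbp and Cd1d1) and 3 lower (H2-Bl and 2 of H2-K1), against 8.36% and 8.48% of all such probe sets.

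The remaining steps of the pathway were followed in 5 further gene lists. Of all tested genes, limma called 3.9% higher and 3.57% lower. In the same directions, 12.3% and 13.2% had an unadjusted limma p below 0.05. The first list was of other class I heavy chains. Of its 20 entries 6 had a probe set of their own and 4 were tested, of which H2-T3 fell and limma called none higher (0 higher and 1 lower with unadjusted p-values below 0.05; median log2 change -0.18). H2-Q2, a Q-region gene, had 6.65 and 7.26 with 4OHT, against 6.89 and 6.77 with ethanol, and H2-M10.1 had 5.31 and 5.10 with 4OHT, against 5.48 and 5.42 with ethanol. In none of the 4 tested class I-like molecules outside the MHC did limma call a change (1 higher at an unadjusted p under 0.05; median 0.36). Mr1, which presents vitamin B metabolites to mucosal-associated invariant T cells, had 8.22 and 8.06 with 4OHT, against 7.64 and 6.89 with ethanol. Its change was 0.87 ± 0.25 (SE, adjusted p = 0.0973), with no overlap between the groups, and the ethanol arrays differed from each other by almost as much. Its size depended on the ethanol array used: it was 1.25 without ethanol replicate 1 (adjusted p = 0.0347) and 0.50 without ethanol replicate 2 (adjusted p = 0.123). It was also called with the replicate block (adjusted p = 0.00275) and with the mean of its probe sets (adjusted p = 0.0333). Hfe, a regulator of iron uptake, had 7.42 and 7.63 with 4OHT, against 7.37 and 7.29 with ethanol.

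None of 15 tested genes for peptide supply and loading passed in limma in either direction, against 3.9% higher and 3.57% lower of all tested genes. With unadjusted p-values below 0.05, 0 were higher and 1 lower, against 12.3% and 13.2%. The median change of the 15 was 0.04. Psmb8, an immunoproteasome subunit, had 12.51 and 12.30 with 4OHT, against 12.60 and 12.44 with ethanol. Calr, the chaperone calreticulin, had a change of 0.05 ± 0.09 (SE, adjusted p = 0.781). Named after their values were seen, Tap1 and Tap2 had changes of 0.20 (adjusted p = 0.432) and 0.23 (adjusted p = 0.234).

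Of 21 tested genes for class I transcription and interferon signalling, 3 rose, none fell and 18 did not pass in limma, with a median change of 0.16 (8 higher and 1 lower with unadjusted p-values below 0.05). Over all tested genes the called shares were 3.9% higher and 3.57% lower, and those at an unadjusted p below 0.05 were 12.3% and 13.2%; the median was -0.01. Ifngr1, a chain of the interferon-gamma receptor, rose 1.80-fold to 9.85 and 10.01 with 4OHT, against 8.99 and 9.17 with ethanol (0.85 ± 0.11 SE, adjusted p = 0.0202). Irf8, an interferon regulatory factor, rose 1.52-fold (adjusted p = 0.0286) and Ifnar1, a chain of the type I interferon receptor, 1.38-fold (adjusted p = 0.0491). Left out in turn, each array but ethanol replicate 2 ended the Ifngr1 call, and all 4 ended those of Irf8 and Ifnar1, at log2 changes of 0.76 to 0.94, 0.55 to 0.66 and 0.40 to 0.53. The Ifnar1 call was also lost without the floor, with quantile normalization or median centring, with the mean of probe sets, and without probe sets marked _x_at, _s_at or _a_at (adjusted p from 0.0515 to 0.0878). Jak1, a kinase of both receptors, had a change of 0.49 (adjusted p = 0.103), and Ezh2, a repressive histone methyltransferase, of 0.11 (adjusted p = 0.571). The class II activator Ciita was below the floor, at 4.08 and 3.94 with 4OHT and 3.84 and 4.15 with ethanol.

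Of 7 tested genes of MHC class II and its loading, 1 rose and none fell in limma, against 3.9% and 3.57% of all tested genes. With unadjusted p-values below 0.05 it was 1 and 0, against 12.3% and 13.2%. The median change of the 7 was -0.05. H2-Oa, a modulator of class II loading, rose 1.82-fold to 9.26 and 9.0 with 4OHT, against 8.37 and 8.17 with ethanol (0.87 ± 0.13 SE, adjusted p = 0.0263; not called without any 1 array, adjusted p from 0.0677 to 0.123). H2-Ab1, a class II beta chain, had 8.74 and 8.83 with 4OHT, against 8.96 and 8.98 with ethanol (adjusted p = 0.252). Ifi30, a lysosomal thiol reductase, had 7.18 and 8.03 with 4OHT, against 7.72 and 8.15 with ethanol.

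**Figure D4:**
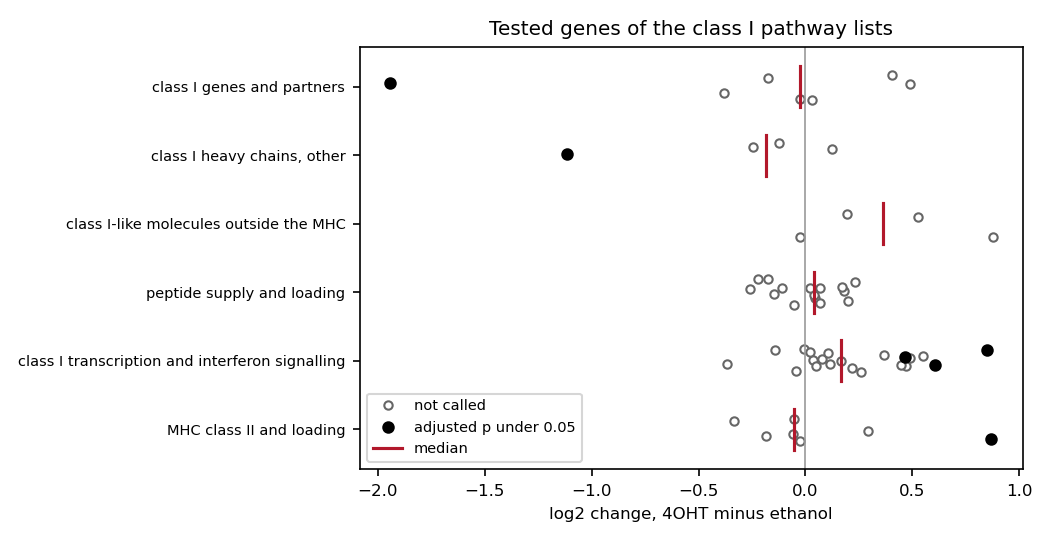
Each point is a tested gene and the x axis is the log2 change, 4OHT minus ethanol, with filled points for an adjusted p under 0.05 and a red line at the median of each list. H2-Bl and H2-T3 are the called points left of 0, and the 4 called points right of 0 are Ifngr1, Irf8, Ifnar1 and H2-Oa.

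H2-Bl, the 5 heavy chain genes and Tapbp lie in 1 stretch of chromosome 17. In the RefSeq gene order, 274 annotated genes run from Tapbp to H2-M3, and 105 of them were tested. Of the 105, 3 (2.86%) were called higher and 4 (3.81%) lower, close to the 3.9% and 3.57% of all tested genes, and their median change was -0.01. In the order of the stretch, Wdr46, an rRNA processing gene close to Tapbp, was lower, H2-Oa and Ddah2 were higher, 2300002M23Rik, H2-Bl and H2-T3 were lower, and Trim26 was higher. Between H2-Bl and H2-T3 lie 10 annotated genes, among them H2-T10. 2300002M23Rik had 6.58 and 7.33 with 4OHT, against 9.64 and 9.65 with ethanol, and lies between H2-D1 and the T region. Trim26, a TRIM family gene beyond H2-T3, had 7.89 and 7.66 with 4OHT, against 6.93 and 6.84 with ethanol. Those other than H2-Bl, H2-T3 and H2-Oa were named after their values were seen.

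**Figure D5:**
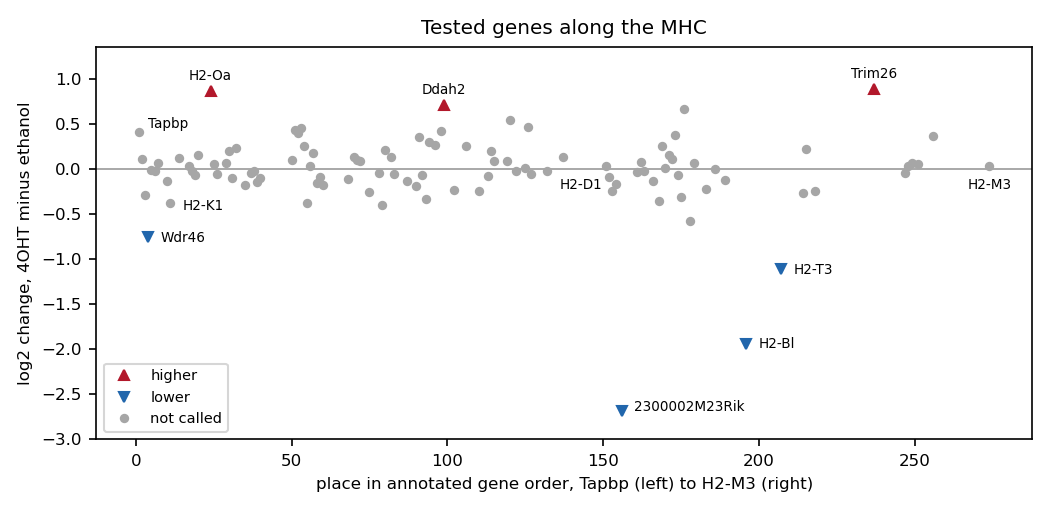
Each point is a tested gene, placed by its rank in the annotated gene order from Tapbp to H2-M3, and the y axis is the log2 change, 4OHT minus ethanol; triangles are called genes and grey points are not. H2-K1 and H2-D1 are among the grey points, and H2-Bl and H2-T3 lie near each other at changes of -1.94 and -1.11.

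The promoters of the T-region genes differed among themselves. In the same 200 bases, H2-T22 held 2 ATTGG matches and 1 ISRE core, while H2-T3 held none of the 5 patterns. H2-M3 held 1 TGACGC, 3 ATTGG and 1 TGGGAA matches. Tapbp held 1 ATTGG and 2 TGGGAA matches, and H2-Q10 held 1 TGGGAA and none of the first 3. A match to this exact ISRE pattern occurred in H2-T23, H2-T22 and B2m, and was not found in H2-T3. Whether any of these patterns bears on the changes was not tested.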

How the data were processed

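Per the submitters' processing notes, the authors summarised the arrays with RMA, and the deposited log2 values cover each probe set on each array; its version is not given here. That they are log2 was read from their range (2.25 to 14.6, array medians 5.12 to 5.14). The number of arrays limits the precision. Of 45101 probe sets, 64 were controls, 34945 others named 1 gene and 932 several. Genes were named from the platform annotation. Matched by gene number to RefSeq, no symbol changed and 204 probe sets had no match.

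For the comparison limma 3.58.1 was run under R 4.3.3 (lmFit and eBayes, all 4 arrays, no block, Benjamini-Hochberg adjustment), over 11581 genes at or above the 40th percentile of probe-set means; probe sets were fitted without a filter. The fit was also run on simulated data with known changes and independent noise, which does not test shared probes or replicate effects. The genes and lists were chosen with earlier results of these data known. All 10 genes are named. From each list up to 3 called genes per direction and 2 uncalled ones with the highest mean are named.

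The alternatives were no filter or a 60th percentile floor, quantile normalization or median centring on top, a replicate block, each array left out, the mean of probe sets, no _x_at, _s_at or _a_at probe sets, a prior that follows intensity (plain or robust), and other thresholds. Those for H2-T probe sets were added after seeing the data. SEs are those of limma after eBayes, from 2 arrays per group. They draw each gene's variance toward that of all genes fitted, so they are not the gene's own replicate scatter alone.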

Additional observations from a re-analysis of the deposited data

How the results depend on the processing

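A fit without 1 array has 1 residual degree of freedom, from the group of 2 arrays alone, and assumes that the lone array varies alike. Among the 10 genes, 1 stayed called lower in each of those fits and none was called higher. Over all genes tested, leaving out 1 array left 9 to 125 genes called higher and 12 to 66 lower, against 452 and 413. For the related lists it left 0 to 1 higher and 0 to 1 lower, against 4 and 1, and for probe sets naming H2-Bl or an H2-T gene 1 to 2 lower, against 9. The number of genes of the set called higher was 1 with the 60th percentile floor, the mean of probe sets, the intensity trend, its robust form, or an adjusted p under 0.10; it was Cd1d1.

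Both groups carry replicate numbers 1 and 2, and the labels do not say whether arrays of equal number were handled together. The correlation of deviations between them was 0.34 over 2 pairs, too few to settle this. With the replicate number as a block, 2 genes of the set were called higher (Tapbp and Cd1d1) and 2 lower (H2-Bl and H2-K1). In that fit 11 related genes were called higher and 2 lower, and of all genes 1104 higher and 1031 lower. The H2-T count was 10, and the share of all probe sets called in that fit is not given here. The number of all genes called lower was 269 without probe sets marked _x_at, _s_at or _a_at, and 636 with the intensity trend. With the robust prior, 679 were higher and 666 lower. At an adjusted p under 0.10, 853 were higher and 824 lower, with 8 related genes higher and 2 lower. At 0.01, 24 were higher and 22 lower, and 0 related genes were called either way (4 higher and 1 lower at 0.05). Related genes called lower numbered 2 with the 60th percentile floor and with the robust prior.

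Some changes reversed sign with 1 array left out. H2-D1 ran from -0.17 to 0.11 (above 0 without 4OHT replicate 1 or ethanol replicate 2). H2-M3 ran from -0.015 to 0.073 (below 0 without the same arrays). H2-Q2 ran from -0.18 to 0.43 (below 0 without 4OHT replicate 2). Ifi30, at -0.33 with all arrays, ran from -0.76 to 0.088 (above 0 without 4OHT replicate 1). Its 4OHT arrays lay far apart, at 7.18 and 8.03. H2-M3 was -0.035 with quantile normalization. H2-K1 and B2m have no value without probe sets marked _x_at, _s_at or _a_at. The cause was not tested.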
